A study of Mus musculus with 8 samples.

Results

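Kitl, which encodes Kit ligand (stem cell factor), and Kit, which encodes its receptor, were followed across mouse embryonic stem cells of 4 genotypes that differ in the histone demethylase genes Jmjd1a and Jmjd1b. They are 2 of the 18194 genes to which the array's annotation gives a probe set of their own. All 6 probe sets that carried Kitl or Kit as their only gene symbol were kept, 4 for Kitl and 2 for Kit. The pair was chosen by its measured log2 values across the genotypes, above all the high Kitl signal in cells lacking Jmjd1a, so the differences between genotypes in Kitl and Kit are given as a description, with no test.

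Kit ligand is made as a protein anchored in the membrane, from which proteases can release a soluble form. It binds Kit, a receptor tyrosine kinase, and the paired receptors then phosphorylate each other and call in adaptors, phosphatidylinositol 3-kinase, Src family kinases, JAK2 and the Ras pathway. The pair is known for its role in germ cells, melanocytes, blood stem cells and mast cells, and embryonic stem cells can carry the receptor too. Jmjd1a and Jmjd1b, now named Kdm3a and Kdm3b, encode enzymes that take methyl groups off lysine 9 of histone H3, a mark of silent chromatin.

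There were 8 arrays, 2 biological replicates for each genotype. WT cells were Jmjd1a+/+; Jmjd1b+/+. Jmjd1a-KO cells were Jmjd1adelta/delta; Jmjd1b+/+ and came from a Jmjd1a-deficient line. Jmjd1b-KO cells were Jmjd1a+/+; Jmjd1bdelta/delta. In the double-KO cells, Jmjd1adelta/delta; Jmjd1bdelta/delta, a conditional Jmjd1b allele had been deleted in a Jmjd1a-deficient line. The series' design text describes Jmjd1b-deficient lines made by infecting a pool of targeted cells with an adenovirus that expresses Cre, whereas the sample labels call the Jmjd1b-KO cells stem cells from deficient mice. The sources used here do not say which line each replicate came from, and differences between lines cannot be told apart from differences between genotypes. All cells were kept in knockout serum replacement, fetal calf serum and leukemia-inhibiting factor, and the protocol given for every sample names 800 nM OHT (4-hydroxytamoxifen), the agent used to delete the conditional allele. RNA was labelled from 200 ng of total RNA.

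The deposited values were on the log2 scale, with array medians of about 6.8. Of the 18194 genes, 11648 were flat, meaning that the value of their brightest probe set spanned less than 0.01 over the 8 arrays. The other 6546 are called measured here. As 7181 genes had at least 1 probe set that was not flat, some genes called flat varied on a dimmer probe set. Flat genes lay as high as 10.7 among the inhibitors listed below, so flat does not mean not expressed. Their equal values came with the deposited data and do not show that these genes were unchanged. Kdm3a lay at 12.83 and 12.73 in WT and at 4.60 and 4.77 in double-KO, and Kdm3b at 9.91 and 9.96 in WT, 7.07 and 7.10 in Jmjd1b-KO and 7.06 and 7.66 in double-KO, so the targeted genes followed the labels. All 10 embryonic stem cell markers looked up were measured, and their mean lay between 11.30 and 12.09 on every array. The 2 double-KO arrays differed in Esrrb, at 7.68 in replicate 1 and 9.58 in replicate 2, and in Klf4, at 8.74 and 10.25.

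The DNA just upstream of each gene is shown first, because enzymes of this family are known to act on histones at promoters. These are the 250 bases before the RefSeq start site in mouse build GRCm38.p6, on the plus strand, chr10:100015571-100015820 for Kitl and chr5:75574737-75574986 for Kit. Capitals mark a TATA box (TATAAA) or a GC box (GGGCGG), searched on both strands, where adjoining matches run together.
Kitl: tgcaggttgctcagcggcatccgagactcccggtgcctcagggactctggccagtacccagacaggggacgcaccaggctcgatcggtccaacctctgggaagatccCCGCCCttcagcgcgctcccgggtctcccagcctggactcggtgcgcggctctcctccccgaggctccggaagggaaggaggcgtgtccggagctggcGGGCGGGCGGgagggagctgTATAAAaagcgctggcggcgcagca
Kit: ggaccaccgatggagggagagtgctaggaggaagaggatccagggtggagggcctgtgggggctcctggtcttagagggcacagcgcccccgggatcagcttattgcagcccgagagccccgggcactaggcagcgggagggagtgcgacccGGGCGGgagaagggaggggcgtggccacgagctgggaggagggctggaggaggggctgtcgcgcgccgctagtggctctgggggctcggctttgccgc
The Kitl sequence was 69.2% G and C with 23 CpG pairs, and the Kit sequence 70.8% with 17. The TATA box matched once in Kitl, 25 bases before the start, and not in Kit. It was found in 13% of the 27025 RefSeq promoters of this length. The GC box, the letters that Sp1 binds, matched 3 times in Kitl and once in Kit, against 32.9% of promoters with any match. The AP-2 core GCCNNNGGC matched once in Kit and not in Kitl, and was present in 13.6% of promoters. Neither sequence held the E-box CANNTG, present in 66.0% of promoters, or its special case CACGTG, present in 6.05%. The arrays measured RNA only, so no value here bears on what is bound at these bases.

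Kitl was highest in the cells that lacked both enzymes. Its brightest probe set, 1415855_at, read 7.35 and 7.34 in WT, 9.28 and 9.26 in Jmjd1a-KO, 7.35 and 6.69 in Jmjd1b-KO, and 11.08 and 10.39 in double-KO. The double-KO arrays were thus above all others, the Jmjd1a-KO arrays lay between, and the Jmjd1b-KO and WT arrays overlapped. On this probe set Kitl was 3.79-fold higher in Jmjd1a-KO than in WT, 2 arrays against 2 (log2 difference 1.92 ± 0.33, SE pooled over all 8 arrays). In double-KO it was 10.5-fold higher than in WT (3.39 ± 0.33), 2.76-fold higher than in Jmjd1a-KO (1.47 ± 0.33) and 13.1-fold higher than in Jmjd1b-KO (3.71 ± 0.33). The Jmjd1b-KO mean differed from WT by -0.32 ± 0.33. The difference between double-KO and Jmjd1b-KO exceeded that between Jmjd1a-KO and WT by 1.79 ± 0.47.

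**Figure D1:**
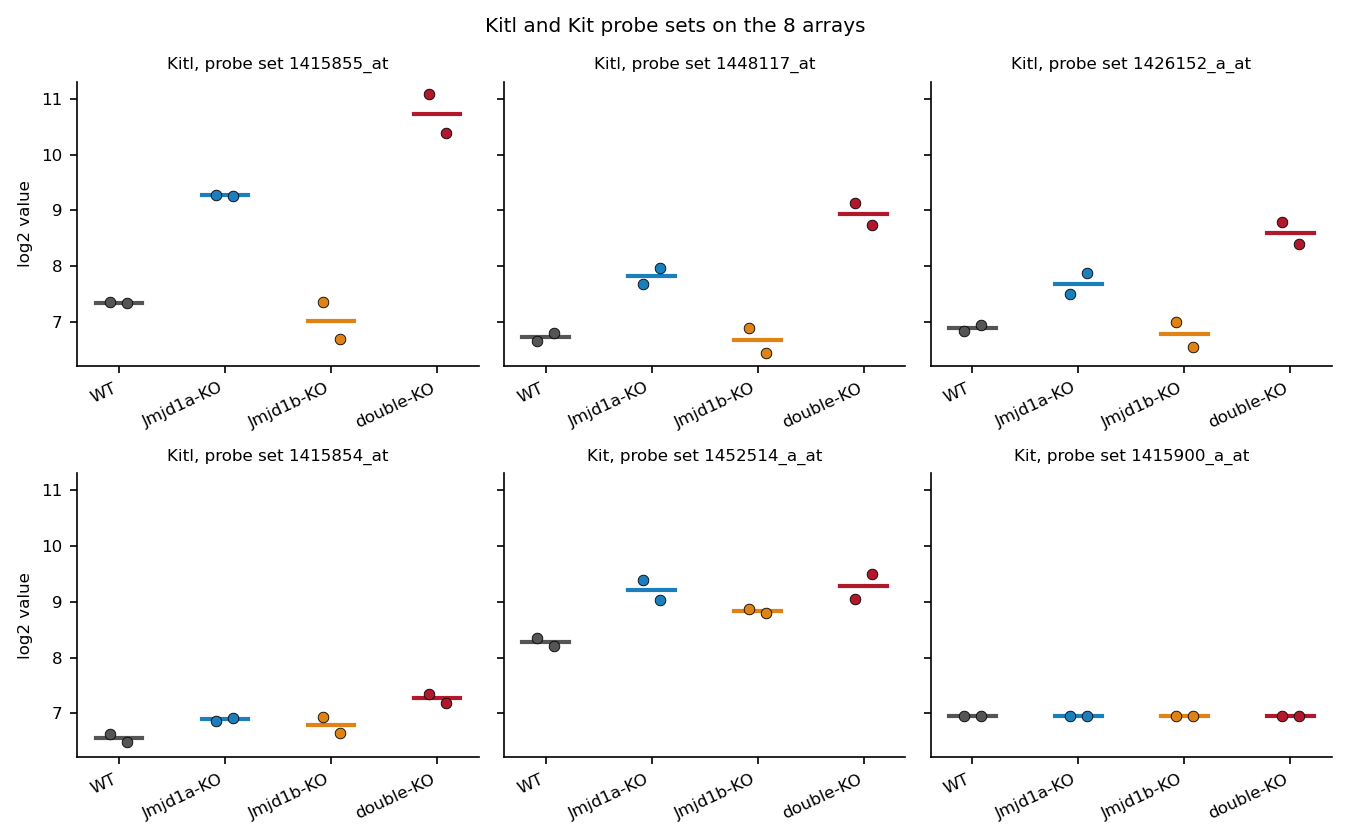
Deposited log2 value of each of the 6 probe sets for Kitl and Kit, one point per array, by genotype, with 2 arrays per genotype and a line at the mean. All 4 Kitl probe sets are highest in double-KO, and 1 of the 2 Kit probe sets is flat at 6.95 on all arrays.

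The size of the Kitl difference depended on the probe set. Probe set 1448117_at read 6.66 and 6.79 in WT, 7.68 and 7.96 in Jmjd1a-KO, 6.89 and 6.44 in Jmjd1b-KO, and 9.13 and 8.74 in double-KO. Probe set 1426152_a_at read 6.83 and 6.94, 7.49 and 7.87, 7.0 and 6.54, and 8.80 and 8.40 in the same order. The dimmest, 1415854_at, read 6.62 and 6.48, 6.86 and 6.92, 6.93 and 6.64, and 7.35 and 7.19. The double-KO arrays were above every other array on all 4. Between double-KO and WT the 4 probe sets gave 3.39, 2.21, 1.71 and 0.72, or 10.5, 4.63, 3.28 and 1.64-fold. The WT means of the 3 dimmer probe sets, 6.73, 6.88 and 6.55, lay near the array median. The brightest had means of 7.34 in WT and 7.02 in Jmjd1b-KO, not far above it. With no detection calls used here it is unknown whether these values were above background, so the folds may understate the difference. On 1415854_at the Jmjd1b-KO arrays were also above both WT arrays, by 0.24, whereas on the other 3 probe sets these groups overlapped. Across the 8 arrays the brightest probe set correlated with the other 3 at r = 0.991, 0.984 and 0.878, which describes probe sets read from the same RNA. All 4 probe sets lay higher with no overlap in double-KO than in WT, as did 43.8% of all measured genes, and so they did in Jmjd1a-KO against WT (35.1% of measured genes) and in double-KO against Jmjd1a-KO (35.2%) and against Jmjd1b-KO (44.7%). In Jmjd1b-KO against WT 1 of the 4 did, beside 44.1%. With 2 arrays a group, lack of overlap alone sets no gene apart.

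Kit followed another order. Its brightest probe set, 1452514_a_at, read 8.35 and 8.21 in WT, 9.39 and 9.03 in Jmjd1a-KO, 8.86 and 8.79 in Jmjd1b-KO, and 9.06 and 9.50 in double-KO. The WT arrays were the lowest, the Jmjd1b-KO arrays came next, and the Jmjd1a-KO and double-KO arrays were higher and overlapped each other. Compared with WT, Kit was 1.91-fold higher in Jmjd1a-KO (0.93 ± 0.21, SE), 1.47-fold higher in Jmjd1b-KO (0.55 ± 0.21) and 2.01-fold higher in double-KO (1.00 ± 0.21). Double-KO differed from Jmjd1a-KO by 0.07 ± 0.21 and from Jmjd1b-KO by 0.45 ± 0.21. The second Kit probe set, 1415900_a_at, had 6.95 on every array, so the pattern of Kit rests on 1 probe set.

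Side by side on their brightest probe sets, Kitl differed by 1.92 and Kit by 0.93 in Jmjd1a-KO against WT, by -0.32 and 0.55 in Jmjd1b-KO, and by 3.39 and 1.00 in double-KO. Against Jmjd1a-KO the double-KO values were 1.47 and 0.07, and against Jmjd1b-KO 3.71 and 0.45. Kit was above WT on both Jmjd1b-KO arrays, and the brightest Kitl probe set was not. The comparisons with WT share the 2 WT arrays. Each of the 6546 measured genes was read here from its brightest probe set. Of these, 7 had a larger positive difference than Kitl between double-KO and WT, 10 between Jmjd1a-KO and WT, and 93 between double-KO and Jmjd1a-KO. For Kit the same counts were 463, 138 and 2908. The other Kitl probe sets gave smaller differences, and the pair was chosen by its values, so these ranks are no test. The median difference of all measured genes was between 0.01 and 0.03 in these 3 comparisons.

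**Figure D2:**
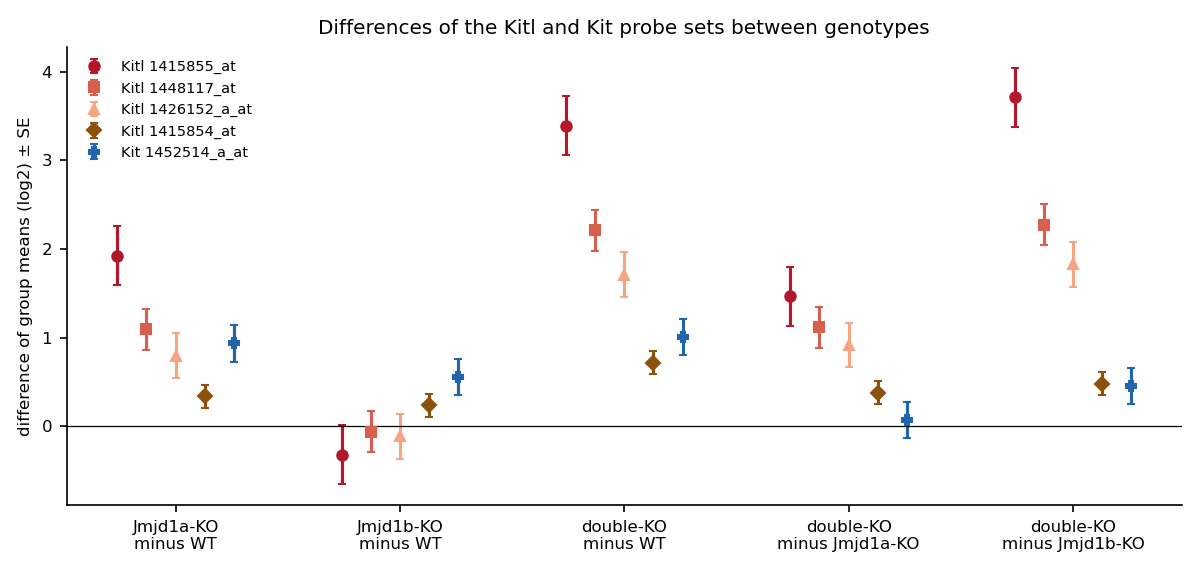
Log2 difference for the 4 Kitl probe sets and the Kit probe set that was not flat, in 5 comparisons of 2 arrays against 2. Bars are 1 standard error from a limma fit over all probe sets with a single gene symbol, with spread pooled over the 8 arrays. Kitl is highest in the comparisons of double-KO with WT and with Jmjd1b-KO, at 3.39 and 3.71 on its brightest probe set.

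On its brightest probe set, replicates of Kitl were close in WT and Jmjd1a-KO and further apart in the groups without Jmjd1b. The gap between the 2 arrays was 0.02 for WT, 0.02 for Jmjd1a-KO, 0.66 for Jmjd1b-KO and 0.69 for double-KO. For Kit the gaps were 0.14, 0.35, 0.07 and 0.45. The standard deviation of the replicate differences over all measured genes was 0.15, 0.35, 0.12 and 0.30 in the same order. On that probe set the Kitl gap was larger than the spread in Jmjd1b-KO and double-KO and smaller in WT and Jmjd1a-KO. On 1426152_a_at the gap was 0.38 in Jmjd1a-KO and 0.40 in double-KO, so the other probe sets did not all share this. The double-KO replicate with the lower Esrrb and Klf4 had the higher Kitl, 11.08 against 10.39, and the lower Kit, 9.06 against 9.50. The part of stem cell state in these gaps was not tested.

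The genes that act with the pair were read from 5 lists, of transducers, inhibitors, related receptors and ligands, shedding enzymes and transcription regulators. The lists name 120 genes besides Kitl and Kit, of which 108 were on the array, 56 were measured and 52 were flat. A gene is said to rise or fall where limma's moderated test over all 18194 genes gave a Benjamini-Hochberg adjusted p under 0.05. In double-KO against WT 14 listed genes rose and 5 fell of the 56 measured, where 17.0% of all measured genes rose and 11.0% fell. Compared with WT, Jmjd1a-KO had 4 that rose and 2 that fell, beside 1.67% and 1.44% of measured genes, and Jmjd1b-KO had 2 and 1, beside 2.41% and 1.48%. From Jmjd1a-KO to double-KO 4 rose and 2 fell, beside 6.03% and 3.48%, and from Jmjd1b-KO to double-KO 14 rose and 4 fell, beside 17.1% and 15.0%. The difference between double-KO and Jmjd1b-KO exceeded that between Jmjd1a-KO and WT for 2 listed genes and fell short of it for 2, beside 3.65% and 2.99% of measured genes. Of the 46 calls between 2 genotypes that the naming rule picked from the pathway lists, 6 held when any 1 of the 8 arrays was left out, namely Sohlh2 in Jmjd1a-KO and double-KO against WT and in double-KO against Jmjd1b-KO, Tfap2c in double-KO against WT and against Jmjd1b-KO, and Akt1 in double-KO against Jmjd1b-KO. The other 40 were lost without at least 1 array, with no change of direction. The 19 calls in double-KO against WT became 3 and 4 without either WT array, 7 without either Jmjd1b-KO array, 8 and 10 without either double-KO array and 17 without either Jmjd1a-KO array. With each gene's probe sets averaged, 6 of the 46 no longer passed, at 0.08 for Crk and -0.68 for Epas1 in Jmjd1a-KO, 0.87 for Vegfc there, -0.08 for Akt1 in Jmjd1b-KO, 0.60 for Pdgfa in double-KO, all against WT, and 0.46 for Spred1 in double-KO against Jmjd1b-KO. The median difference of the 56 genes between double-KO and WT was 0.16, beside 0.03 for all measured genes.

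Of the 20 measured transducers, which carry the signal from the activated receptor, 6 rose and none fell in double-KO against WT. Beside them, 17.0% of all measured genes rose and 11.0% fell, and whether the list departs from these shares was not tested. The median difference of the transducers was 0.17. Pik3cb, a catalytic subunit of phosphatidylinositol 3-kinase, read 7.75 and 7.88 in WT, 7.95 and 7.94 in Jmjd1a-KO, 8.43 and 8.22 in Jmjd1b-KO, and 9.39 and 9.14 in double-KO. It rose by 1.45 ± 0.12 in double-KO against WT (adjusted p = 0.0091) and by 1.32 ± 0.12 against Jmjd1a-KO (adjusted p = 0.0195). Jak2, a tyrosine kinase that associates with Kit, read 7.01 and 7.26, 7.26 and 7.32, 7.11 and 6.92, and 8.37 and 8.28 in the same order, so that only the double-KO arrays were above 8. It rose by 1.19 ± 0.11 against WT (adjusted p = 0.0123). The second Jak2 probe set gave 0.25 for that comparison. Sos2, an exchange factor that loads Ras with GTP, rose by 0.97 ± 0.15 (adjusted p = 0.0304).

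Akt1, the kinase downstream of phosphatidylinositol 3-kinase, moved less but with close replicates. It read 8.56 and 8.50 in WT, 8.48 and 8.57 in Jmjd1a-KO, 8.16 and 8.23 in Jmjd1b-KO and 8.83 and 8.83 in double-KO, so it was lowest without Jmjd1b alone and highest without both. It fell by 0.34 in Jmjd1b-KO against WT (SE 0.04, adjusted p = 0.0492) and rose by 0.64 ± 0.04 from Jmjd1b-KO to double-KO (adjusted p = 0.0052). Only 1 of its 4 probe sets was not flat. Crk, an adaptor, rose by 0.28 ± 0.03 in Jmjd1a-KO against WT (adjusted p = 0.0426), the only transducer to pass the test there. Flat members included Src and Stat3.

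Of the 14 measured inhibitors, which damp the signal of Kit and of other receptor kinases, 4 rose and 2 fell in double-KO against WT. Over all measured genes the shares were 17.0% and 11.0%. Against Jmjd1b-KO 5 inhibitors rose and 1 fell, beside 17.1% and 15.0% of all measured genes. Spry1 and Spry2 encode Sprouty proteins, which block the path from receptors to Ras. Spry1 read 7.61 and 7.71 in WT, 8.31 and 8.10 in Jmjd1a-KO, 7.89 and 7.83 in Jmjd1b-KO, and 8.90 and 8.74 in double-KO, with no overlap between groups. It rose by 1.16 ± 0.10 in double-KO against WT (adjusted p = 0.0101), and Spry2 by 1.31 ± 0.24 (adjusted p = 0.0450). Ptpn6, the phosphatase SHP-1, rose by 0.78 ± 0.15 (adjusted p = 0.0470), and Rasa1, which switches Ras off, by 0.38 ± 0.06 (adjusted p = 0.0342).

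The inhibitors that fell were Grb10 and Inpp5d. Grb10, an imprinted adaptor of receptor kinases, read 12.03 and 12.04 in WT, 8.18 and 9.32 in Jmjd1a-KO, 8.28 and 8.70 in Jmjd1b-KO, and 5.98 and 6.59 in double-KO. It fell by 5.75 in double-KO against WT (SE 0.47, adjusted p = 0.0088), on the 1 of its 3 probe sets that was not flat, and its double-KO values lay near the lower quartile of the arrays, from 6.34 to 6.35. Inpp5d, the lipid phosphatase SHIP, fell by 1.25 (SE 0.18, adjusted p = 0.0266). From Jmjd1b-KO to double-KO, Dusp4, a phosphatase of MAP kinases, rose by 3.34 ± 0.51 (adjusted p = 0.0276) and Spred1, a Ras pathway inhibitor, by 1.32 ± 0.26 (adjusted p = 0.0489). Dusp4 was lowest in Jmjd1b-KO, at 6.52 and 6.72, against 8.09 and 8.17 in WT and 10.40 and 9.52 in double-KO.

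**Figure D3:**
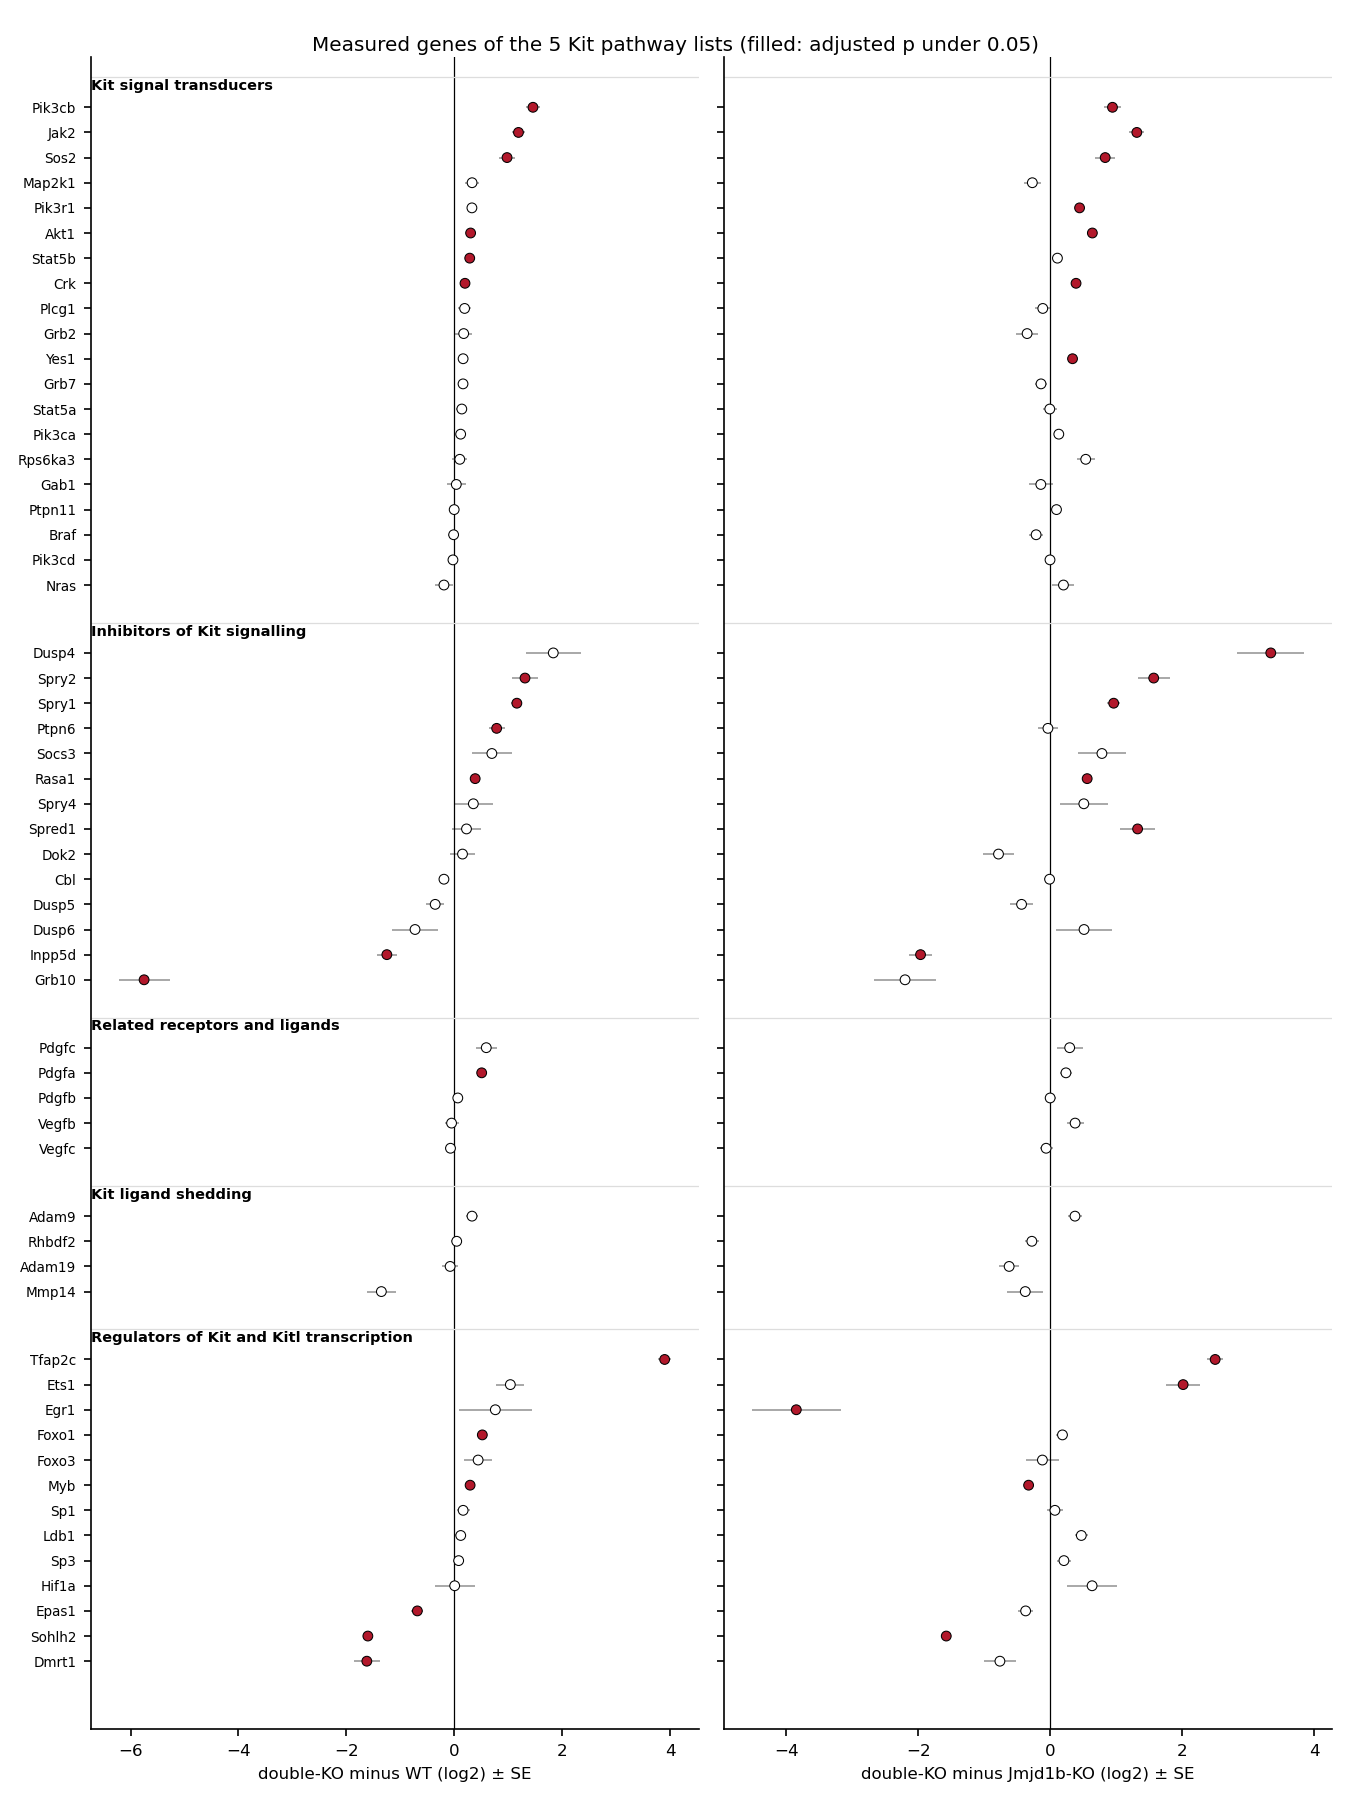
Log2 difference of each measured gene of the 5 pathway lists, between double-KO and WT (left) and double-KO and Jmjd1b-KO (right), 2 arrays against 2. Bars are 1 standard error from the limma fit, which pools the spread of all 8 arrays, and filled points mark adjusted p under 0.05. Tfap2c and Grb10 lie furthest from 0 on the left, at 3.89 and -5.75.

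Of the related receptors and ligands, 5 of 16 on the array were measured, all of them ligands. The receptors next in kind to Kit, among them Pdgfra, Csf1r and Flt3, were flat. Vegfc, a vascular growth factor, read 8.62 and 8.68 in Jmjd1a-KO and between 7.49 and 7.75 on the 6 other arrays. It rose by 0.99 ± 0.10 in Jmjd1a-KO against WT (adjusted p = 0.0333) and fell by 1.06 from Jmjd1a-KO to double-KO (SE 0.10, adjusted p = 0.0205). Pdgfa rose by 0.50 ± 0.09 in double-KO against WT (adjusted p = 0.0401).

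The list of shedding enzymes, which release soluble Kit ligand and related proteins, had 4 measured members of 11. With limma none passed the adjusted threshold in the 5 comparisons, and at an unadjusted p under 0.05 there were 0, 3, 2, 1 and 2, in the order Jmjd1a-KO, Jmjd1b-KO and double-KO against WT, then double-KO against Jmjd1a-KO and Jmjd1b-KO. Of all measured genes, 33.3%, 37.1%, 54.8%, 40.8% and 56.7% passed that unadjusted threshold. With 4 genes, the counts cannot show whether the list departs from these shares. The lack of adjusted calls depended on the setting. With flat probe sets removed before the fit, 1 of the 4 rose and 1 fell in Jmjd1b-KO against WT, where 23.8% of all genes were called. The same counts held in double-KO against WT (48.4%) and against Jmjd1b-KO (51.8%). No call was made in Jmjd1a-KO against WT or in double-KO against Jmjd1a-KO. The difference for Mmp14, a membrane metalloproteinase, between double-KO and WT was -1.35 (adjusted p = 0.0537). Adam10, Adam17 and Mmp9 were flat.

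Of the transcription regulators listed for Kit or Kitl, 13 of 25 on the array were measured. In double-KO against WT 3 rose and 3 fell, beside 17.0% and 11.0% of all measured genes, and the median difference was 0.16. Tfap2c, an AP-2 factor of germ cells and trophoblast, read 8.16 and 8.36 in WT, 10.80 and 10.68 in Jmjd1a-KO, 9.79 and 9.53 in Jmjd1b-KO, and 12.14 and 12.17 in double-KO. It rose in all 3 mutants against WT, by 2.48 ± 0.12 in Jmjd1a-KO (adjusted p = 0.010), 1.40 ± 0.12 in Jmjd1b-KO (adjusted p = 0.0213) and 3.89 ± 0.12 in double-KO (adjusted p = 0.0029). Its groups stood in the order WT, Jmjd1b-KO, Jmjd1a-KO, double-KO with no overlap.

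Sohlh2, a germ cell factor known to drive Kit, went the other way. It read 9.01 and 9.04 in WT, 7.25 and 7.16 in Jmjd1a-KO, 9.01 and 8.98 in Jmjd1b-KO and 7.41 and 7.43 in double-KO, low on each array without Jmjd1a. It fell by 1.82 in Jmjd1a-KO against WT (SE 0.04, adjusted p = 0.0015) and it fell by 1.60 in double-KO (SE 0.04, adjusted p = 0.0015). Dmrt1, a sex determination factor, fell by 1.62 in double-KO (SE 0.25, adjusted p = 0.0301), and Epas1, a hypoxia factor, by 1.10 in Jmjd1a-KO (SE 0.11, adjusted p = 0.0318). Myb, a factor of blood progenitors, rose in all 3 mutants, by 0.57, 0.62 and 0.29 (adjusted p = 0.010, 0.0102 and 0.0183). Foxo1, a forkhead factor that Akt restrains, rose by 0.52 ± 0.09 in double-KO (adjusted p = 0.0401), but by probe set its difference ran from 0.04 to 0.52. From Jmjd1b-KO to double-KO, Ets1 rose by 2.01 ± 0.26 (adjusted p = 0.0201) and Egr1, an immediate early factor, fell by 3.85 (SE 0.68, adjusted p = 0.0372). Egr1 read 12.28 and 12.88 in Jmjd1b-KO and at most 9.61 on any other array. Mitf, Gata1, Gata2, Tal1 and Runx1 were flat.

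Kit and Kitl belong to several cell types, so markers of those types were read on the same arrays. Of 14 germ cell genes 10 were measured. In double-KO against WT 6 rose, among them Dazl by 2.85, Ddx4 by 1.22 and Mael by 1.86, and 2 fell. In that comparison 17.0% of all measured genes rose and 11.0% fell. Stra8 fell by 4.78 and Zp3 fell by 1.90. Dazl, an RNA-binding protein of germ cells, read 6.73 and 6.72 in WT, 6.88 and 6.71 in Jmjd1a-KO, 8.0 and 8.10 in Jmjd1b-KO and 9.60 and 9.55 in double-KO. The mean of the measured germ cell genes was 8.05 and 8.13 in WT, 7.69 and 7.74 in Jmjd1a-KO, 8.58 and 8.63 in Jmjd1b-KO, and 8.40 and 8.59 in double-KO.

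Only 2 of 10 melanocyte genes, 1 of 14 blood progenitor and mast cell genes, 2 of 7 granulosa and Sertoli cell genes, 2 of 6 endothelial genes and none of 6 keratinocyte genes were measured, and Tyr, Dct and Sox10 were among the flat ones. The measured blood and mast cell gene was Srgn, a granule proteoglycan, which read 6.19 and 6.33 in WT, 8.16 and 6.53 in Jmjd1a-KO, 6.81 and 6.55 in Jmjd1b-KO, and 9.63 and 8.37 in double-KO. Its difference between double-KO and WT, 2.74, did not pass the test (adjusted p = 0.0939), and within double-KO it was higher in replicate 1, as Kitl was. Of 12 fibroblast and stromal markers, cells that can make Kit ligand, 7 were measured, with means from 8.62 to 8.69 in WT, 7.96 to 8.19 in Jmjd1a-KO, 7.36 to 7.46 in Jmjd1b-KO and 7.84 to 7.87 in double-KO, and Lum, Dcn and Prrx1 were flat. The measured trophoblast markers, 5 of 10, had means from 7.26 to 7.40 in WT, 7.40 to 7.46 in Jmjd1a-KO, 7.97 to 8.12 in Jmjd1b-KO and 8.34 to 8.40 in double-KO, while Cdx2, Elf5 and Hand1 were flat. The measured endoderm markers, 5 of 10, ran from 8.18 to 8.36 in WT, 8.37 to 8.49 in Jmjd1a-KO, and 8.56 to 9.0 in double-KO, with a mean of 7.65 on both Jmjd1b-KO arrays, and Gata4, Sox17 and Foxa2 were flat. The part of such cells in the Kitl and Kit values was not tested, and in bulk RNA more cells that express a gene and more RNA per cell cannot be told apart.

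The genes whose pattern was most like that of Kitl were sought among the 1828 measured genes that spanned at least 1 on the log2 scale, by Pearson's r over the 8 arrays. They were Runx1t1, a corepressor (r = 0.996), Hmgn5, a nucleosome-binding protein (0.995), Diaph2, a formin (0.992), Acadl, an enzyme of fatty acid oxidation (0.991), Syt9, a synaptotagmin (0.990) and Pm20d2, a dipeptidase (0.988). Between double-KO and WT these 6 differed by 1.93, 2.60, 2.73, 1.66, 1.39 and 1.11, each less than Kitl. For Kit they were Slc25a40, a mitochondrial carrier (0.985), Pi4k2b, a lipid kinase (0.985), Cyp51, an enzyme of cholesterol synthesis (0.975), Fnip1, a partner of folliculin (0.973), Vps54, a membrane traffic protein (0.972) and Setd6, a methyltransferase (0.971). With 8 arrays in 4 groups such values are common, since 232 genes had r above 0.9 with Kitl and 76 with Kit.

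**Figure D4:**
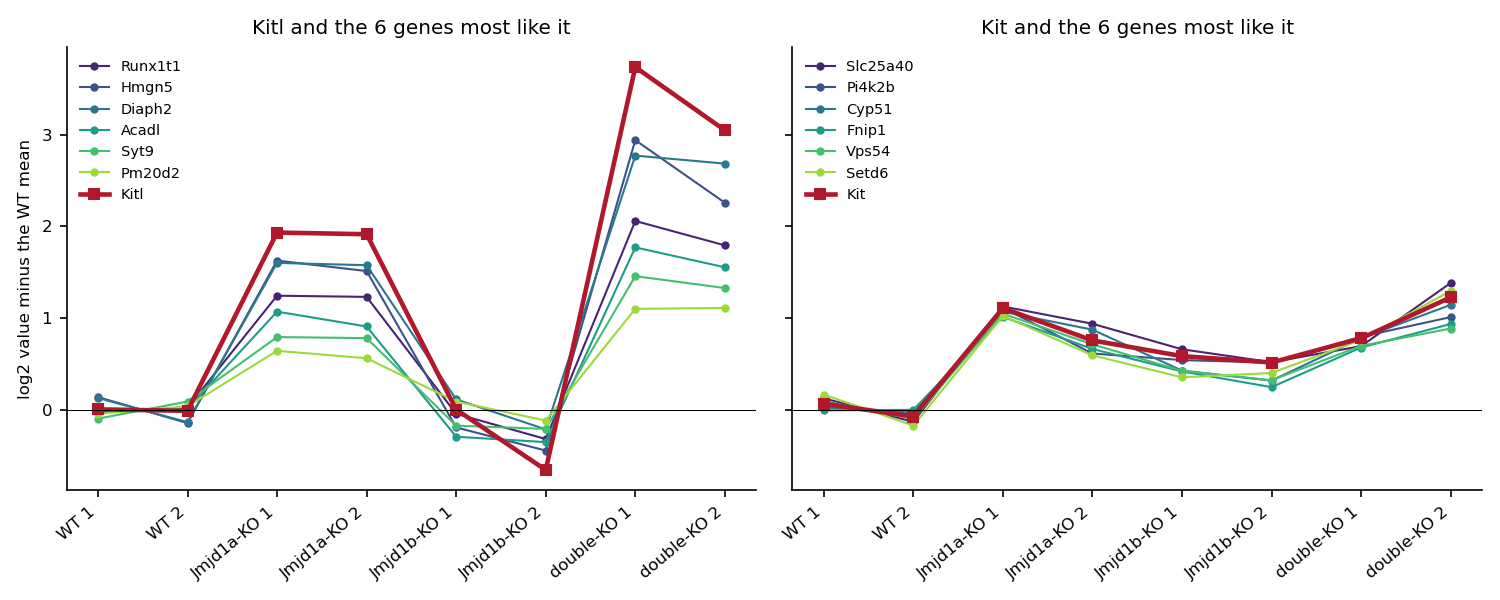
Log2 value on each of the 8 arrays, minus the gene's WT mean, for Kitl (left) and Kit (right), each with the 6 genes most like it by Pearson's r. Lines join arrays of different cells and mark no order. The genes most like Kitl, with r from 0.988 to 0.996, are high in Jmjd1a-KO and highest in double-KO, and those most like Kit, with r from 0.971 to 0.985, are low in WT.

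Most genes beside Kitl and Kit on the chromosome were flat on their brightest probe set, which does not show that they were unchanged or not expressed. Of the 10 nearest genes to Kitl on the array, 5 on each side in RefSeq order, 3 were measured and 7 were flat, the flat ones including Cep290 and Tmtc3. With limma none of the 3 passed the adjusted threshold in the 5 comparisons, and at an unadjusted p under 0.05 there were 2, 1, 2, 0 and 1, in the order used above, where the share over all measured genes was 33.3% to 56.7%. With 2 arrays a group and 3 genes, this does not show that they lack the Kitl pattern. Between double-KO and WT, Dusp6 differed by -0.73, Atp2b1 by 0.30 and 4930430F08Rik by 0.27, beside 3.39 for Kitl. Atp2b1, a calcium pump, differed by 0.51 in Jmjd1a-KO (adjusted p = 0.0959) and by -0.08 ± 0.09 in Jmjd1b-KO against WT. In the same order Dusp6 differed by -0.52 and -1.24, and 4930430F08Rik by 0.44 and 0.25. Beside Kit, 3 of 10 were measured, namely Lnx1, Fip1l1 and Pdcl2, and the receptor kinase genes Pdgfra and Kdr, which flank it, were flat. None passed with limma there either, and at an unadjusted p under 0.05 there were 0, 1, 0, 1 and 2, beside the same shares. Fip1l1 differed by -0.10 and Pdcl2 by -0.23 between double-KO and WT. Pdcl2 differed by 1.59 between Jmjd1b-KO and WT and missed the threshold.

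**Figure D5:**
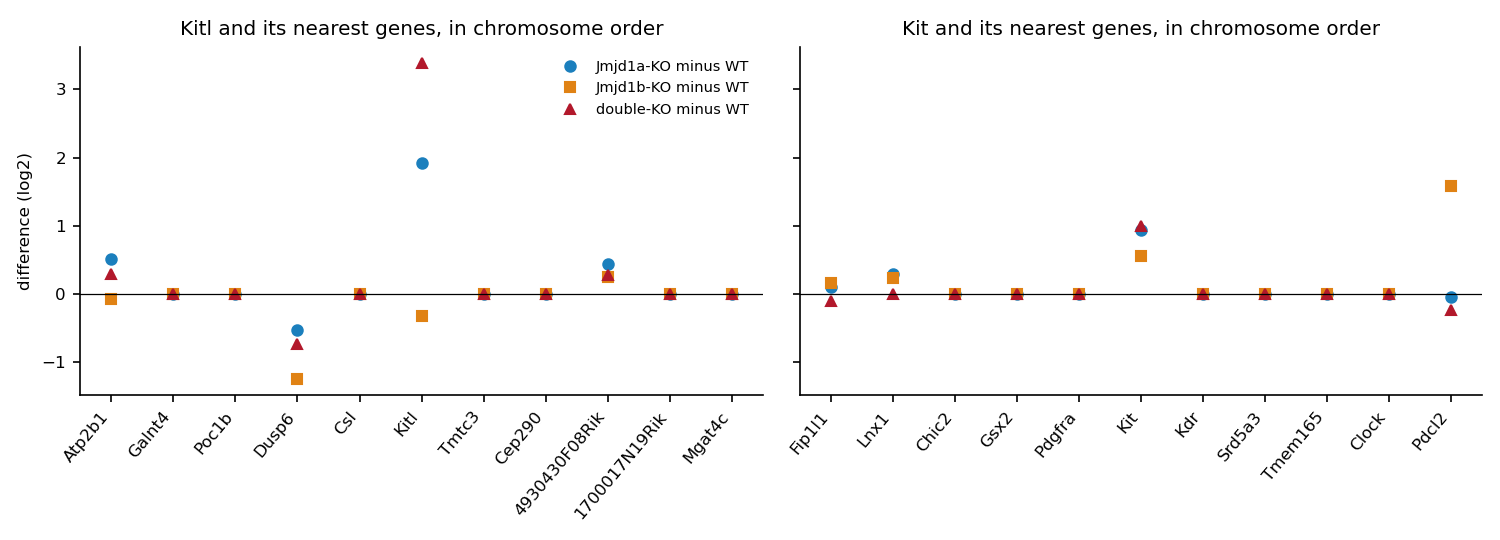
Log2 difference of the group means from WT for each mutant, 2 arrays against 2, for Kitl (left), Kit (right) and the 5 genes on each side of them in chromosome order. In double-KO, Kitl stands at 3.39 and Kit at 1.00, and the measured neighbours lie between -0.73 and 0.30. Flat genes lie at 0, which does not show that they were unchanged.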

How the data were processed

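RNA of 8 arrays was measured, 2 for each of 4 genotypes. The authors deposited log2 values for 45101 Affymetrix probe sets, and per the submitters' processing notes they used R 2.7.2. No source used here names their background correction or normalization. Of the deposited probe sets 74.5% spanned less than 0.01 over all arrays, and these are called flat.

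Probe sets with 1 gene symbol (34958) were kept, 932 with several and 9211 with none were left out, and each of 18194 genes was read from its probe set with the highest mean. limma 3.58.1 was fitted to all genes with a mean per genotype (4 residual degrees of freedom), with Benjamini-Hochberg adjustment over all of them, and a call needed an adjusted p under 0.05 and a gene that was not flat. That fit was also run on simulated data, with independent noise and fewer changed genes than were called here in double-KO against WT. The simulation therefore cannot show how reliable these calls are. Standard errors come from the limma fit to the deposited values, or for single probe sets from the same model fitted over all 34958. Since most genes are flat, the prior of the moderated test was close to empty (prior degrees of freedom 0.112). Named pathway genes are, per list and comparison, the called genes whose arrays do not overlap between the groups, at most the 4 largest rises and 4 largest falls; others are named as flat or as values. Genes most like Kitl or Kit are the 6 highest by r. Members and lists were chosen with earlier results of these data known. The replicates are labelled biological, and 2 arrays a group limit the precision. Same-numbered replicates were not paired: their deviations correlated at r from -0.12 to 0.22. Alternatives were other probe set summaries, scalings, filters, array weights, a replicate block and leaving out each array. Promoter sequences are RefSeq's.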

Additional observations from a re-analysis of the deposited data

Results flagged for a closer look

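For 4 of the 56 measured pathway genes the difference tied to Jmjd1a was not the same with and without Jmjd1b, by limma's test of double-KO minus Jmjd1b-KO against Jmjd1a-KO minus WT. Over all measured genes 6.65% passed this test, so the count does not set the lists apart. The log2 difference of differences was 0.64 for Akt1 (adjusted p = 0.0204), 1.16 for Jak2 (adjusted p = 0.0495), -0.90 for Myb (adjusted p = 0.0136) and -1.05 for Vegfc (adjusted p = 0.0456). For Jak2 the difference was 0.15 where Jmjd1b was present and 1.31 where it was lacking. For Myb it was 0.57 and -0.33, and for Vegfc 0.99 and -0.06. For Akt1 it was near 0 where Jmjd1b was present and 0.64 where it was lacking. The second Jak2 probe set gave 0.39 for double-KO against Jmjd1b-KO, and 3 of the 4 Akt1 probe sets were flat. With each gene's probe sets averaged, 2 of the 4 calls were kept. The count of 4 became 0 without either WT array, without either Jmjd1b-KO array, with the replicate number as a block and at an adjusted p under 0.01. It became 1 and 2 without either double-KO array, and 8 without Jmjd1a-KO replicate 2.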

How the results depend on the processing

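All 10 differences of Kitl and Kit kept their sign under each probe set summary and scaling tried. With each gene's probe sets averaged, Kitl differed by 1.04 (Jmjd1a-KO against WT), 2.01 (double-KO against WT), 0.97 (double-KO against Jmjd1a-KO) and 2.07 (double-KO against Jmjd1b-KO), and Kit by 0.47, 0.28 (Jmjd1b-KO against WT), 0.50 and, against Jmjd1b-KO, 0.23. The mean of probe sets that are not flat, chosen after seeing the data, gave the same Kitl values. It left Kit at 0.93, 0.55, 1.00 and 0.45, so the lower Kit values come from averaging in its flat probe set. Without 1 array, Kitl ran from 1.91 to 1.93 in Jmjd1a-KO, -0.65 to 0.01 in Jmjd1b-KO and 3.05 to 3.73 in double-KO against WT, 1.12 to 1.81 against Jmjd1a-KO and 3.37 to 4.06 against Jmjd1b-KO, and Kit from 0.76 to 1.11, 0.48 to 0.62, 0.78 to 1.23, -0.15 to 0.29 and 0.23 to 0.67.

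Counts of called pathway genes depended on the setting. In the order Jmjd1a-KO, Jmjd1b-KO and double-KO against WT, double-KO against Jmjd1a-KO and against Jmjd1b-KO, and the difference of differences, they were 6, 3, 19, 6, 18 and 4, where 3.10%, 3.90%, 28.0%, 9.52%, 32.1% and 6.65% of all measured genes were called. With flat probe sets removed before each gene's probe set was chosen, which left 7181 genes and 62 pathway genes, they were 17, 20, 29, 21, 32 and 18, where 18.1% to 51.8% of all genes were called. With the replicate number as a block they were 1, 0, 10, 0, 11 and 0 (0.092% to 18.2% of all measured genes), and with the double-KO numbers crossed, chosen after seeing the data, 1, 0, 9, 0, 11 and 1 (0.092% to 20.9%). An adjusted p under 0.01 gave 3, 0, 4, 0, 6 and 0 (0.015% to 7.32%), and the 2 groups alone gave 0, 9, 1, 0 and 4 in the 5 comparisons (0.061% to 9.56%). Array weights gave 3, 24, 0 and 2 for Jmjd1a-KO, Jmjd1b-KO, double-KO against Jmjd1a-KO and the difference of differences (1.12%, 28.7%, 2.15% and 4.81%). Centring gave 28 for Jmjd1b-KO, 29 for double-KO against Jmjd1b-KO and 22 for the difference of differences (38.1%, 58.4% and 39.6%), quantile normalization 28 for double-KO against Jmjd1b-KO (55.6%), and a filter on low means 6 for Jmjd1b-KO (8.75%). Centring moved the median difference by only 0.010 for Jmjd1b-KO, -0.011 for double-KO against Jmjd1b-KO and -0.014 for the difference of differences. These shifts were the same over all genes, flat ones included, as over measured genes. Without 1 array the counts ran from 1 to 9, 0 to 8, 3 to 17, 1 to 4, 3 to 21 and 0 to 8 (0% to 31.2% of all measured genes). Of the 46 named calls, 40 were kept with the mean of probe sets, 45 with quantile normalization, 18 with the block and 5 with the 2 groups alone, and none reversed. The causes were not tested.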
